A study of Mus musculus with 4 samples.

Results

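Ubiquitin-conjugating enzymes, called E2 enzymes, were followed in RNA-seq of mouse bone marrow stem and progenitor cells with and without the kinase GRK6. The genes were chosen by name alone, as every gene whose symbol starts with Ube2 and a further letter, which gave 31 of the 12417 genes that had a row in any library. They are called E2 genes or members below by this rule, which does not show that each encodes an E2 enzyme. The 4 libraries came from hematopoietic stem cells (HSC, sorted as Lin-c-kit+sca-1+) and common lymphoid progenitors (CLP, sorted as Lin-c-kit+sca-1+Il-7Ra+) of wild-type (WT) and GRK6-/- mice on the C57BL/6 strain, with 1 library for each population and genotype. The GRK6-/- mice carried a germline deletion of exons 3 to 9 of Grk6, and the WT mice were their littermates. The age given for mice of the study was 8 to 12 weeks unless stated otherwise. Each library was a pool of 13 to 15 sorted cells from 3 to 4 mice, whose cDNA was amplified cell by cell in rounds of 20 and 10 PCR cycles, so no group had a replicate and no difference between groups could be set against the spread between mice. The values were FPKM, the fragments scaled to transcript length and to the mapped fragments of the library, and a pool of this kind cannot tell fewer cells expressing a gene from less RNA per cell.

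E2 enzymes carry ubiquitin, or a ubiquitin-like protein such as NEDD8, SUMO or ISG15, from an activating enzyme (E1) to a ligase (E3) or straight to the substrate. The modifier is held as a thioester on a cysteine of the E2, and the E2 often decides which kind of ubiquitin chain is built. In dividing progenitors E2 enzymes serve the destruction of mitotic cyclins and the tolerance and repair of DNA damage, and some are known from the clearance of proteins in maturing red cells.

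The feature by which these genes are a family is shown first. In the coding sequences (GENCODE, build NCBIM37, which is mm9) a window was searched that starts with codons for histidine, then proline or cysteine, then asparagine or histidine, and ends at a cysteine codon after 7 or 8 residues. All 31 genes had a coding sequence and 23 held the window, 21 with 33 bases and 2 with 36 bases. The last codon was TGC in 9 and TGT in 14 of them. Windows follow for genes that differed most between libraries and for their nearest relatives. The first 3 codons and the cysteine codon are in capitals.
Ube2c: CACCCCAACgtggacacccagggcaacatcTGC
Ube2d1: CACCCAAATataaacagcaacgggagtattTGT
Ube2d3: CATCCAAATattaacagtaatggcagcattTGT
Ube2e1: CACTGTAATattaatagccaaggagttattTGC
Ube2e2: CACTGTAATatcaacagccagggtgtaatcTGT
Ube2e3: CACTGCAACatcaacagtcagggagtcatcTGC
Ube2l6: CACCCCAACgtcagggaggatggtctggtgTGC
Ube2t: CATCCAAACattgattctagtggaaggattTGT
Ube2w: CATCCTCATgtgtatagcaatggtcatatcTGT
Ube2h: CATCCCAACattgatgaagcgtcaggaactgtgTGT
The Ube2e genes shared CACTGTAAT or CACTGCAAC, which reads histidine, cysteine, asparagine, where the other windows printed have a proline codon in the middle. Ube2w had CATCCTCAT, with a histidine codon last of these 3. The 8 genes without a match were Ube2cbp, Ube2j1, Ube2o, Ube2q1, Ube2q2, Ube2v1, Ube2v2 and Ube2z, and of these Ube2v1 and Ube2v2 are known as variants that lack the catalytic cysteine. For the others the search says only that these letters are absent from the sequence used.

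Before the results, the libraries were checked against their labels. The estimated depth was about 2950000 mapped fragments for WT HSC and 4430000 for WT CLP, and 3810000 and 2840000 for the GRK6-/- libraries of these populations, so that 1 fragment in a 2 kb transcript was worth 0.113 to 0.176 FPKM. The study reports a much larger number of reads for each lineage. The depth estimates may be too low, and with them the fragment counts and counting intervals below. The targeted gene, Grk6, had 42.7 FPKM in HSC and 26.9 in CLP of WT mice, and 89.4 and 57.6 in those of GRK6-/- mice. It was thus higher in the libraries labelled GRK6-/- than in those labelled WT. The deletion covers exons 3 to 9 only, and 1 value per gene cannot show whether those exons were read. The Grk6 values thus do not bear out the labels and cannot refute them. Each direction below is that of the labelled libraries. The 10 lymphoid progenitor markers summed to 168 and 118 FPKM in the HSC libraries of WT and GRK6-/- mice, and to 2807 and 2625 in the CLP libraries. Il7r was counted as 0 in WT HSC, as was done for any missing row. The near sums of the CLP libraries, led by Ly6d at 1438 and 1051 FPKM, hide differences within the list. In GRK6-/- CLP 4 of the 10 markers were past a 2-fold rise (Ebf1, Cd79a, Vpreb1 and Igll1) and 2 past a fall (Rag1 and Rag2). Igll1 had 2.2 FPKM in WT and 226.5 in GRK6-/- CLP, and Rag2 had 94.5 and 0. Of 10 stem cell markers Ly6a, which encodes the Sca-1 used in the sort, had no row among the genes kept. Genes named in rows of several genes had been left out, so this does not show that Ly6a was absent. Kit ranged from 26.2 FPKM in WT CLP to 81.8 in GRK6-/- CLP. The 9 stem cell markers with a row summed to 384.3 and 476.5 FPKM in WT and GRK6-/- HSC, and to 402.1 and 671 in WT and GRK6-/- CLP. By this sum the stem cell markers did not separate HSC from CLP. The 7 erythroid markers with a row summed to 343, 1718, 154 and 18089 FPKM in the same order, and all 7 were past a 2-fold rise in both knockout libraries. Hba-a2, an alpha globin, made up 17220 FPKM of the GRK6-/- CLP sum and had 5.98, 53.1 and 17.4 FPKM in the other libraries. The myeloid markers summed to 17843, 11352, 9404 and 7742 FPKM, with the granule gene Elane at 3516 FPKM or more in every library.

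The E2 genes were expressed throughout. Of the 31 genes 29 had a row in all 4 libraries and 27 had at least 1 FPKM in all 4. Their median level was 24.2 FPKM in WT and 34.6 in GRK6-/- HSC, and 29.8 in WT and 20.9 in GRK6-/- CLP. The median of all genes with a row was 10.7, 9.25, 11.9 and 12 FPKM in that order. The sum over the family was highest in WT CLP, at 2027 FPKM, against 1208 and 1386 in the HSC libraries of WT and GRK6-/- mice and 1071 in GRK6-/- CLP. Ube2c, the E2 that primes mitotic cyclins for destruction, was the highest member in each library and made up 13.6% and 21.4% of the sum in WT and GRK6-/- HSC and 33.6% and 10.3% in WT and GRK6-/- CLP. By mean FPKM over the libraries Ube2c, at 313, was followed by Ube2d3 at 121, Ube2b at 105, Ube2e1 at 91.4 and Ube2s at 82.7. The lowest were Ube2o at 4.21, Ube2h at 3.51, Ube2cbp at 2.97 and Ube2v2 at 2.70. The Ube2h mean counts a missing row as 0, and with the row of its locus, described below, it was 6.75 FPKM, above Ube2o. Without replicates neighbours in this order cannot be told apart by their spread, and the ranges over the libraries of Ube2d3, from 85.5 to 188 FPKM, and Ube2b, from 71.8 to 172 FPKM, overlapped for most of their length.

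**Figure D1:**
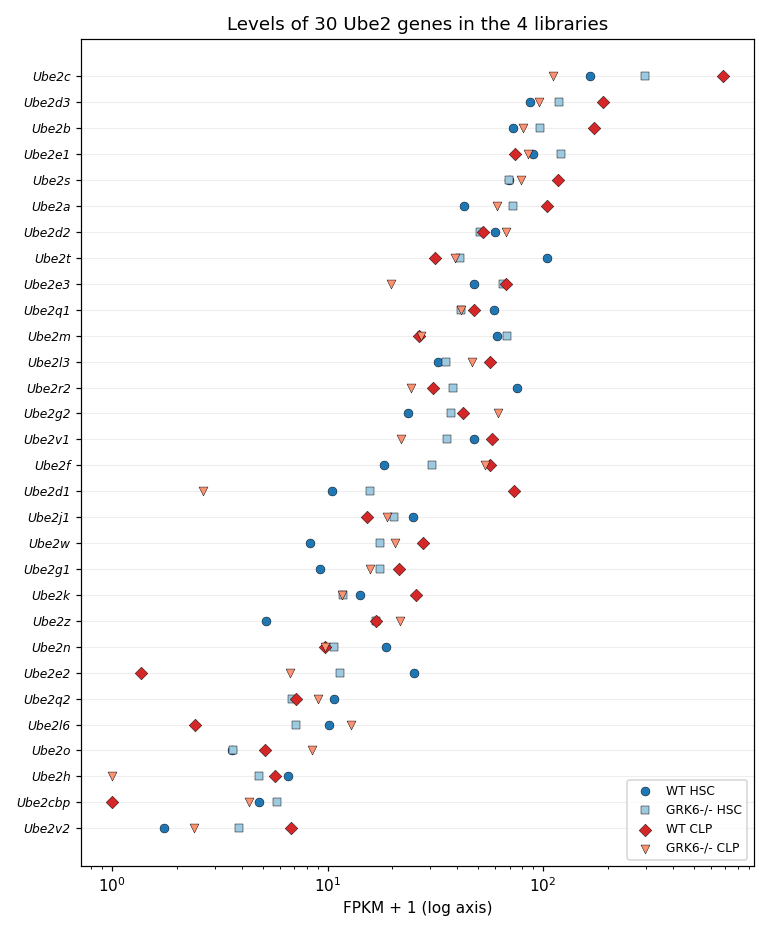
FPKM + 1 on a log axis of 30 Ube2 genes, ordered by mean FPKM, with 1 point for each of the 4 libraries and no error bars, since each group had 1 library. Ube2c lies to the right in every library, at 110 to 681 FPKM, and Ube2d1 and Ube2e2 have the widest ranges. The 2 points at 1 on the axis are genes with no row under their symbol, Ube2cbp in WT CLP and Ube2h in GRK6-/- CLP.

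The members differed in how far they moved. On the scale of log2(FPKM + 1) 9 genes kept within a range of 1 over the 4 libraries, among them Ube2d2, Ube2e1, Ube2j1, Ube2l3, Ube2n, Ube2q1, Ube2q2 and Ube2s. Ube2d2 had the narrowest range, 0.40, with 58.8 and 50.0 FPKM in WT and GRK6-/- HSC and 51.8 and 66.4 in WT and GRK6-/- CLP. Every run of 4 values below keeps this order, HSC before CLP and WT before GRK6-/- within each. The widest ranges were 4.79 in Ube2d1 and 4.21 in Ube2e2. WT CLP held the highest level of 14 members and WT HSC the lowest level of 11. These counts, and that of genes within a range of 1, were not taken over all genes. They therefore do not show a trait of the family.

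The study asked what loss of GRK6 changes in each population, which the comparison of GRK6-/- with WT addresses. A gene was called past a 2-fold change when its log2 ratio of FPKM + 1 reached 1 in either direction, a description of 2 libraries with no test. In HSC 5 of 31 E2 genes passed it, 3 higher and 2 lower in GRK6-/-, or 16.1%, where 37.4% of all 11624 genes with a row did. In CLP 11 of 31 passed it, 3 higher and 8 lower, or 35.5%, against 50.0% of 11191 genes. With Ube2h taken by its locus, as described below, the CLP count was 4 higher and 7 lower. The populations were compared within each genotype as well. In WT CLP against WT HSC 16 of 31 were past the change, 10 higher and 6 lower in CLP, or 51.6%, against 46.5% of all genes. In GRK6-/- CLP against GRK6-/- HSC 6 of 31 were past it, 1 higher and 5 lower, or 19.4%, against 45.6%. Because each library enters 2 of these 4 comparisons, they are not independent of each other.

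Members were higher in level than most genes, so the counts were also taken among genes with a mean of 10 to 100 FPKM. There 3 of 21 members were past the change in HSC against 35.6% of all genes, and 4 of 20 in CLP against 48.1%. Between populations 9 of 21 members were past it in WT against 44.9%, and 2 of 19 in GRK6-/- against 44.6%. In this range the median absolute log2 ratio was 0.51 for the members and 0.69 for all genes in HSC, and 0.40 and 0.95 in CLP. It was 0.87 and 0.88 between the WT populations, and 0.26 and 0.87 between the GRK6-/- populations. Without the limit on level these medians were 0.50 and 0.72 in HSC, and 0.54 and 1 in CLP. Between populations they were then 1.13 and 0.91 in WT, and 0.40 and 0.89 in GRK6-/-. At a mean of 10 to 100 FPKM the shares of members past the change were 14.3% in HSC and 20% in CLP. Between populations they were 42.9% in WT and 10.5% in GRK6-/-. Each lay under the share of all genes, but 42.9% was close to the 44.9% beside it. The higher share of members between the WT populations was seen only over all 31 genes. These shares were not tested against each other.

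**Figure D2:**
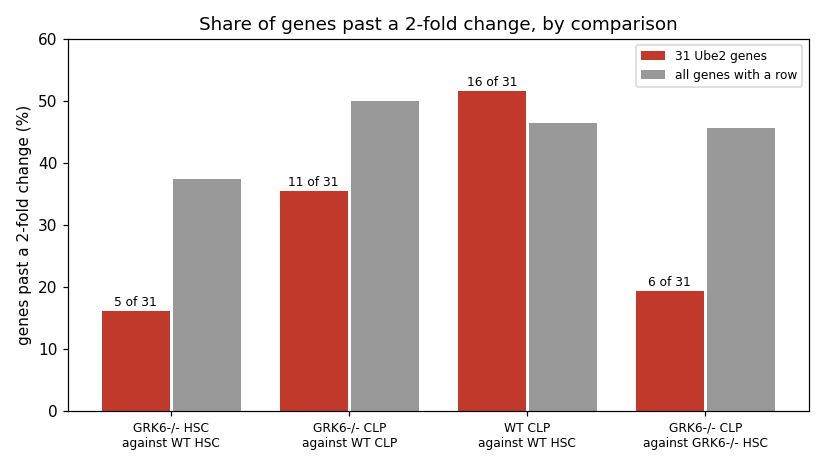
Percent of genes past a 2-fold change in each of 4 comparisons, for the 31 Ube2 genes and for all genes with a row in either library. The members stand at 16.1%, 35.5%, 51.6% and 19.4%, beside 37.4%, 50.0%, 46.5% and 45.6% of all genes.

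No member was past the change between genotypes in the same direction in HSC and CLP. Of all 10398 genes with a value in both comparisons 10.1% were. Of the 31 genes 2 were past it in opposite directions (Ube2e2 and Ube2v2), or 6.45% against 10.8% of all genes. By this threshold 3 were past it in HSC only (Ube2t, Ube2w and Ube2z), or 9.68% against 16.1%, 9 in CLP only, or 29.0% against 28.3%, and 17 in neither, or 54.8% against 34.7%. The sign of the ratio was the same in 13 members, with 7 higher and 6 lower in both GRK6-/- libraries, and opposite in 18, where all genes divided evenly. With Ube2h taken by its locus these counts of members were 12 and 19. Whether the populations differed in these effects was not tested. Just outside the threshold were Ube2r2 in HSC, with a log2 ratio of -0.99, and Ube2d3 in CLP, with -0.98. Just inside were Ube2w in HSC, with 1.09, and Ube2b in CLP, with -1.10.

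**Figure D3:**
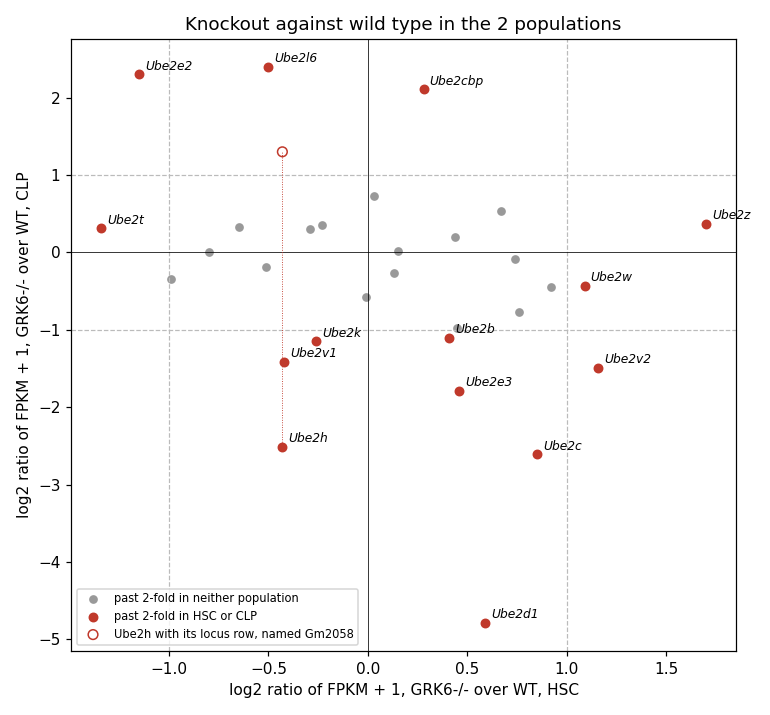
Log2 ratio of FPKM + 1, GRK6-/- over WT, in HSC (x axis) and CLP (y axis), 1 point for each of 30 Ube2 genes, with dashed lines at a 2-fold change. Red points passed it in HSC or CLP and are named. No point lies in the corners for the same direction in both, and Ube2d1 lies lowest at -4.79 in CLP. The open circle is Ube2h taken by its locus.

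The E2 enzymes of the anaphase-promoting complex (APC/C), the ligase that marks mitotic cyclins for destruction, were Ube2c, which starts the chains, and Ube2s, which extends them. Ube2c (chr2:164595429-164598402, mm9) had 164 FPKM in HSC and 681 in CLP of WT mice, and 297 and 110 in those of GRK6-/- mice. WT CLP was the highest and GRK6-/- CLP the lowest. Its FPKM was 6.17-fold lower in GRK6-/- CLP than in WT CLP, with a log2 ratio of -2.61 (95% counting interval of the FPKM ratio -2.74 to -2.51), and in HSC it was higher in GRK6-/-, with 0.85. The counting intervals here and below are exact binomial intervals from fragments estimated out of FPKM, and they cover counting error only, not cells, mice or PCR. Ube2s had 68.6, 68.2, 116 and 77.8 FPKM. It stayed within the 2-fold change in every comparison, with -0.01 in HSC and -0.57 in CLP.

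Other genes of dividing cells are given beside these values. For the counts from lists here and below, 37.4% of all genes were past the change either way in HSC and 50.0% in CLP. Of 20 cycling cell genes 4 were past a rise and 1 past a fall in GRK6-/- HSC, with a median log2 ratio of 0.25, and 2 were past a rise and 10 past a fall in GRK6-/- CLP, with a median of -0.78. Of the 20 genes 9 had their lowest level in the same library as Ube2c, GRK6-/- CLP, and 5 had their highest level there. Among the 9 were cyclin B1 (Ccnb1), a substrate of the APC/C, with 20.2, 58.6, 43.3 and 3.24 FPKM, and cyclin B2 (Ccnb2), with 52.6, 89.6, 258 and 49.0 FPKM. The 5 were Mki67, Aurkb, Pcna, Mcm5 and Rrm2. The others of the 9 were Top2a, Cdk1, Aurka, Plk1, Bub1, Cenpa and Cenpf, so both sets hold genes of mitosis, with Aurkb among the 5. By sign 12 of the 20 ratios were above 0 and 8 below in HSC, and 7 above and 13 below in CLP. The list thus leaned to a fall in GRK6-/- CLP, with no direction common to all its genes. Of 15 APC/C subunits and activators 2 were past a rise and 1 past a fall in GRK6-/- HSC, and none past a rise and 5 past a fall in GRK6-/- CLP, with medians of 0.51 and -0.70. Anapc13, a small subunit, was past a fall in both, with -1.30 and -1.04, where 10.1% of all genes were past the change in the same direction in both. The part of cell division in the Ube2c values was not tested.

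Promoter windows of 250 bases before to 50 bases after the start were read from the RefSeq table of build GRCm38.p6. They are printed for Ube2c and for Ube2t, the E2 of the Fanconi anemia pathway, each past the change in a GRK6-/- library. Ube2c lies at chr2:164769679-164769978 and Ube2t at chr1:134962315-134962614, both on the plus strand. The capitals mark matches on either strand to CCAAT, the box read by NF-Y, and to TTTGAA, the cell cycle homology region of mitotic genes.
Ube2c: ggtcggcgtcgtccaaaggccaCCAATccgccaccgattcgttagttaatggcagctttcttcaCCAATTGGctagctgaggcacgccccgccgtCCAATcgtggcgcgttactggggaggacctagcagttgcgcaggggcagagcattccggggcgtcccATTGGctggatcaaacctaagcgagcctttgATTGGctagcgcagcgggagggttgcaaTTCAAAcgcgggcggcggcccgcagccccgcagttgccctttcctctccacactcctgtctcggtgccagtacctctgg
Ube2t: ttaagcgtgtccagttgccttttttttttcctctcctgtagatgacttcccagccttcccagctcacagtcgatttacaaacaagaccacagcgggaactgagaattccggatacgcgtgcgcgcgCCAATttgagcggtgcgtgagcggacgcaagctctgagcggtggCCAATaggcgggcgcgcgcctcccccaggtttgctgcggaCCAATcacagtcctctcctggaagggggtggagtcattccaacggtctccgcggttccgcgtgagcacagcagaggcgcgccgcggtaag
Ube2c held 6 CCAAT matches, a pair of them overlapping at -186 to -179, and TTTGAA on the minus strand at -29 to -24. Ube2t held 3 CCAAT matches, at -124, -80 and -40, and no TTTGAA. The letters were not particular to this pair. Among the 34 windows that the source holds for 24 members, 6 held CCAAT and 3 held TTTGAA. Ube2f, a NEDD8 E2, held 3 CCAAT and TTTGAA, while Ube2s held no CCAAT. Ube2s held TTCGAA, another form of the cell cycle homology region, which 1.56% of all promoters held. The windows of Ube2d1, Ube2e2 and Ube2l6, also past the change, held no match to these or the other motifs searched. At least 1 CCAAT was held by 37.41% of all 32851 promoters in the table, at least 3 by 3.37% and at least 6 by 0.08%, and TTTGAA by 17.89%. Both at least 3 CCAAT and TTTGAA were held by 0.54%. These are matches of letters and no measurement of binding.

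**Figure D4:**
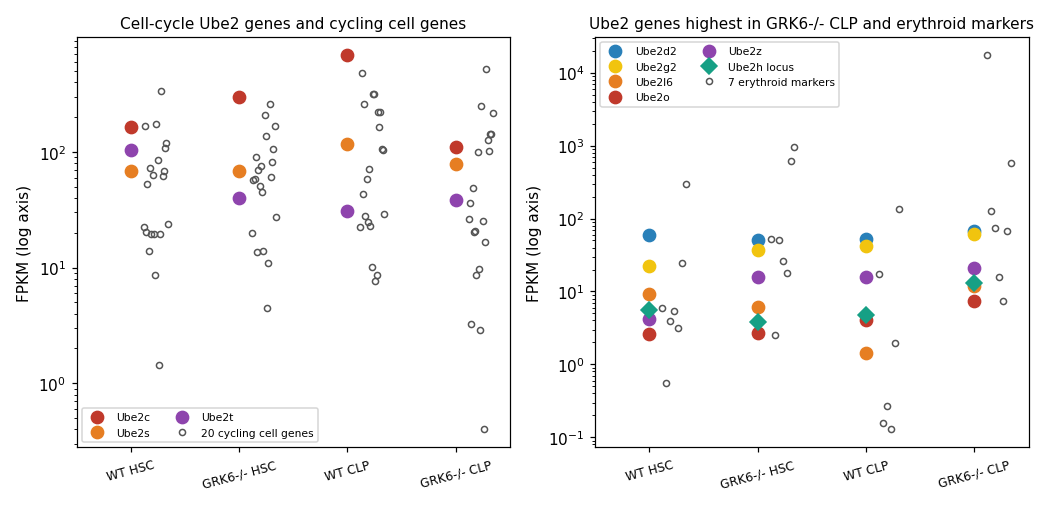
FPKM on a log axis in the 4 libraries. On the left, Ube2c, Ube2s and Ube2t stand with all 20 cycling cell genes (open circles), of which 9 are lowest and 5 highest in GRK6-/- CLP, where Ube2c is lowest. On the right, the 5 members highest in GRK6-/- CLP and the Ube2h locus, chosen for that, stand with all 7 erythroid markers (open circles), of which 3 are highest in GRK6-/- CLP and 4 in GRK6-/- HSC. Alas2 is counted as 0 in WT CLP and has no point.

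The Ube2d enzymes work with many ligases and are close copies, with 86.3% identity between the coding sequences of Ube2d2 and Ube2d3 and 77.3% between Ube2d1 and Ube2d3. Ube2d1 (chr10:70717728-70748010, mm9) had 9.46 FPKM in HSC and 72.0 in CLP of WT mice, and 14.8 and 1.63 in those of GRK6-/- mice. It was 44.1-fold lower in GRK6-/- CLP than in WT CLP, with a log2 ratio of -4.79 (counting interval of the FPKM ratio -6.27 to -4.70), the largest fall of the family in either population. The estimated fragments behind these levels were 88, 178, 1007 and 15. Ube2d3 had 85.5, 117, 188 and 94.7 FPKM, also highest in WT CLP, and Ube2d2 stayed between 50.0 and 66.4 FPKM as given above. Ube2d3 was the highest of the 3 in every library, and Ube2d1 was the lowest in each except WT CLP. How the authors' counting shared out reads between such copies is not given in the sources used here.

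The Ube2e enzymes have an N-terminal extension before the catalytic core, and their windows above differ from the rest in the codon after histidine. Ube2e1 stayed between 73.1 and 120 FPKM and overlaps Nkiras1 in the files, so reads of these genes may be shared. Ube2e2 (chr14:19406091-19726141, mm9) had 24.2 FPKM in HSC and 0.362 in CLP of WT mice, and 10.4 and 5.70 in those of GRK6-/- mice. The WT libraries were its highest and lowest. Its log2 ratio was -1.15 in HSC and 2.30 in CLP, and -4.21 between WT CLP and WT HSC. The WT CLP level rests on an estimated 3 fragments, and the counting interval of the FPKM ratio in CLP ran from 2.52 to 6.53. Ube2e3 had 46.7, 64.5, 66.6 and 18.6 FPKM. It was 3.58-fold lower in GRK6-/- CLP, with -1.79, and 0.46 in HSC. Coding identity among the 3 genes was 76.7% to 78.0%, and no direction was common to them in either population.

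The E2 genes of DNA damage tolerance, Ube2a and Ube2b, were both highest in WT CLP. They are the mammalian counterparts of yeast RAD6 and act with the ligase Rad18 on PCNA and with others on histone H2B. Ube2a had 42.0, 71.8, 103 and 60.4 FPKM, and Ube2b 71.8, 95.7, 172 and 79.8 FPKM. Both were past the change between WT CLP and WT HSC, with 1.28 and 1.25, and Ube2b was 2.15-fold lower in GRK6-/- CLP than in WT CLP, with -1.10, where Ube2a had -0.77. Rad18 had 2.21, 14.8, 5.44 and 0.715 FPKM.

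Ube2n builds chains of the K63 type, used in signaling and DNA repair, together with the inactive partners Ube2v1 or Ube2v2. Ube2n had 17.7, 9.76, 8.70 and 8.76 FPKM, highest in WT HSC and nearly level in the other libraries. Ube2v1 had 47.0, 34.9, 57.1 and 20.9 FPKM and was 2.73-fold lower in GRK6-/- CLP, with -1.41. Ube2v2 had 0.745, 2.89, 5.76 and 1.4 FPKM. It was higher in GRK6-/- HSC, with 1.16, and lower in GRK6-/- CLP, with -1.49, on an estimated 9, 46, 107 and 17 fragments. On the FPKM scale, which is per length, Ube2v1 exceeded Ube2v2 in all 4 libraries.

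Ube2t, the E2 of the Fanconi anemia pathway for DNA crosslinks, had 103, 40.2, 30.6 and 38.1 FPKM. WT HSC stood above the other libraries, which lay within 30.6 to 40.2 FPKM. It was 2.56-fold lower in GRK6-/- HSC than in WT HSC, with -1.34 (counting interval -1.63 to -1.09), and had 0.31 in CLP. Fancl, the ligase Ube2t works with, had 33.2, 32.1, 19.7 and 31 FPKM and was within the 2-fold change in both populations.

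The E2 enzymes for NEDD8 followed different courses. Ube2m and Ube2f carry NEDD8 to cullins. Ube2m had 60.3, 66.8, 25.7 and 26.1 FPKM, so both CLP libraries lay under both HSC libraries, with log2 ratios of -1.20 in WT and -1.32 in GRK6-/-. It was the only member past the change in the same direction between populations in both genotypes, 1 of 31 or 3.23%, where 12.8% of 10493 genes were. Ube2f had 17.3, 29.5, 55.5 and 52.6 FPKM, where both CLP libraries lay above both HSC libraries, with 1.63 and 0.81.

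Ube2l6 carries ISG15, an interferon-induced modifier. It had 9.11, 6.15, 1.43 and 11.9 FPKM and was 8.29-fold higher in GRK6-/- CLP than in WT CLP, with 2.40 (counting interval of the FPKM ratio 2.06 to 4.19), on an estimated 10 fragments in WT CLP. Isg15 itself had 16.5, 21.6 and 4.89 FPKM and was counted as 0 in GRK6-/- CLP, where Ube2l6 was highest. Of 13 interferon response genes with a row in HSC 3 were past a rise and 1 past a fall in GRK6-/-, and of 12 in CLP 4 were past a rise and 4 past a fall. Ube2l3, which serves ligases of the HECT and RBR types and is 64.8% identical to Ube2l6 in its coding sequence, stayed between 31.5 and 55.6 FPKM.

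At the endoplasmic reticulum, where Ube2g1, Ube2g2 and Ube2j1 serve the removal of misfolded proteins, no member was past the change between genotypes. Ube2g2 had 22.6, 36.6, 41.6 and 61.0 FPKM and was higher in GRK6-/- by 0.67 in HSC and 0.54 in CLP. Ube2g1 had 8.27, 16.5, 20.5 and 14.7 FPKM, with WT HSC lowest, and Ube2j1 had 23.8, 19.3, 14.3 and 17.8 FPKM, with WT HSC highest. Of the E2 enzymes that build chains of the K48 type, the signal for the proteasome, Ube2k had 13.1, 10.8, 24.8 and 10.7 FPKM and was 2.32-fold lower in GRK6-/- CLP, with -1.15. Ube2r2 had 74.9, 37.2, 29.8 and 23.4 FPKM, with WT HSC above the rest. Its relative Cdc34, an E2 outside the name rule, had 72.5, 102, 41.5 and 57.1 FPKM.

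The remaining members include Ube2h and Ube2o, known from maturing red cells. Ube2o had 2.59, 2.66, 4.11 and 7.47 FPKM, with log2 ratios of 0.03 in HSC and 0.73 in CLP. Ube2h had 5.53, 3.83 and 4.68 FPKM and no row in GRK6-/- CLP, which gave it a log2 ratio of -2.51 that the added 1 FPKM sets. Its locus (chr6:30161289-30254539, mm9) did have a row in GRK6-/- CLP, under the name Gm2058, at 13.0 FPKM. With that row the ratio was 1.30 and GRK6-/- CLP was its highest library. By symbol 5 members were highest in GRK6-/- CLP, namely Ube2d2, Ube2g2, Ube2l6, Ube2o and Ube2z, a count not taken over all genes. That library had the largest sum of erythroid markers, given above, through Hba-a2. Without Hba-a2 the sum was 337 and 1665 FPKM in WT and GRK6-/- HSC and 137 and 869 in WT and GRK6-/- CLP, so GRK6-/- HSC was highest, and there Ube2o had 2.66 FPKM and Ube2h 3.83. Of the 7 markers 3 were highest in GRK6-/- CLP and 4 in GRK6-/- HSC. The part of erythroid RNA in these levels was not tested.

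Ube2z, which takes ubiquitin from the E1 Uba6, had 4.16, 15.8, 15.8 and 20.8 FPKM. WT HSC was lowest by far, and Ube2z was 3.79-fold higher in GRK6-/- HSC, with 1.70 (counting interval 1.47 to 2.40). It overlaps Snf8 in the files. Ube2w, which attaches ubiquitin to the N-terminus of proteins, had 7.25, 16.6, 26.6 and 19.5 FPKM and was 2.29-fold higher in GRK6-/- HSC, with 1.09. Ube2q1 had 58.0, 40.5, 46.6 and 40.7 FPKM, and Ube2q2 9.75, 5.86, 6.17 and 8.03 FPKM. Ube2cbp was taken in by its symbol, and its coding sequence held no match to the window above, so its count as an E2 gene rests on the name. Ube2cbp had no row in WT CLP, which was counted as 0. It had 3.79 and 4.80 FPKM in the HSC libraries and 3.30 in GRK6-/- CLP. No fold is given, and its log2 ratio of 2.11 in CLP rests on the added 1 FPKM.

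Genes before and after the E2 step were taken from lists. Of all genes 37.4% were past the change either way in HSC, 50.0% in CLP, and 10.1% in the same direction in both. The lists were not tested against these shares. Of 8 E1 enzymes with a row 4 were past a rise and 1 past a fall in GRK6-/- HSC, and 2 past a rise and 3 past a fall in GRK6-/- CLP. Uba3, the catalytic part of the NEDD8 E1, was past a rise in both, with 5.23, 12.6, 4.28 and 25.3 FPKM and log2 ratios of 1.12 and 2.32. Of 12 genes for ubiquitin and ubiquitin-like proteins none was past the change in HSC, with ratios from -0.85 to 0.87, and 3 were past a rise and 2 past a fall in CLP. Of 5 E2 enzymes outside the name rule 1 was past a fall in HSC, and in CLP 1 was past a rise and 1 past a fall. Of 29 E3 ligases with a value in HSC 7 were past a rise and 4 past a fall, and of 30 in CLP 5 and 8. The ligases past it in the same direction in both populations were Cul2, a cullin, with 1.18 and 1.44, and Arih2, an RBR ligase, with -2.04 and -2.86.

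A model of all 4 libraries was fitted with limma, which leaves 1 residual degree of freedom and takes as its spread the disagreement of the populations on the genotype effect. It called 0 of 31 E2 genes for genotype and 0 for population at an adjusted p under 0.05. Of all 9709 genes tested it called 0% in each case (0 genes), so the count of 0 is not particular to the family. At an unadjusted p under 0.05 it had 0 E2 genes in both cases, with 503 genes of all for genotype and 633 for population. The lowest adjusted p of a member by limma was 0.976 for genotype and 0.79 for population. The lowest unadjusted p belonged to Ube2e2, lower in CLP than in HSC over both genotypes by limma, with a log2 difference of -2.49 (SE 1.07) and an adjusted p of 0.79. A count of 0 from this model does not show that the levels were alike.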

How the data were processed

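RNA of 4 pooled libraries was analysed. The authors deposited FPKM, 1 value per gene and library, with symbols and loci. Per the labels' processing notes TopHat 1.4.0 and build mm9 were used, and the study's methods name the Tuxedo suite. Other versions are not given in the sources used here. The values were thus already scaled for length and depth.

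Values of the same symbol were added up, a missing row counted as 0, and 325 genes named in rows of several genes were left out. Log2 ratios of FPKM + 1 were computed with Python 3.11.15, numpy 2.4.6 and pandas 2.3.3, and a gene was past the change at an absolute value of 1. Each group had 1 library, so these comparisons have no test. limma 3.58.1 (R 4.3.3) was fitted on log2(FPKM + 1) with population and genotype as terms, for genes of at least 1 FPKM in at least 2 libraries, with Benjamini-Hochberg adjustment over all of them. Depth was estimated from the steps of FPKM under 0.3 in genes over 1500 bp, where 70.6% to 80.6% of the values lay within 10% of a whole number of fragments. The estimates are rough and may be too low. Fragments per gene came from it and the longest annotated transcript, and 95% intervals from exact binomial limits (scipy 1.17.1). The scripts were tested on simulated data.

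Members were named with their values, and 1 member, counted among the 31, is not reported here. Genes outside the rule were named where they were past the change in the same direction in both populations, were Grk6 or Cdc34, or were markers given beside a member. Rad18 and Fancl were named after their values were seen. The members, lists and markers were chosen with earlier results of these data known. The alternatives were the pseudocount, rescaling, filters on low values, genes with rows in both libraries, a stricter threshold, use of only the highest row of a symbol, quantile normalization for limma and, added after seeing the data, rows matched by locus.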

Additional observations from a re-analysis of the deposited data

Results flagged for a closer look

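Of the 31 E2 genes 2 were past a 2-fold change in opposite directions in the populations, or 6.45%, where 10.8% of all 10398 genes were. Ube2e2, an E2 with an N-terminal extension, had a log2 ratio of GRK6-/- over WT of -1.15 in HSC and 2.30 in CLP. Ube2v2, an inactive partner of Ube2n, had 1.16 in HSC and -1.49 in CLP. Whether the populations differ in these effects was not tested, since no group has replicates. Both genes rest on few estimated fragments in a WT library, 3 for Ube2e2 in WT CLP and 9 for Ube2v2 in WT HSC.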

How the results depend on the processing

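The counts of E2 genes past the change kept within 1.5 times of those reported under every alternative except the stricter threshold. With a pseudocount of 0.1 they were 6 in HSC, 11 in CLP, 17 between the WT populations and 6 between the GRK6-/- populations. The shares of all genes were then 49.8%, 59.2%, 56.8% and 56.9%. With genes that had a row in both libraries the counts were 5, 9, 15 and 5 of 31, 29, 30 and 30 members. All genes then stood at 34.7%, 45.0%, 42.9% and 42.1%. At a threshold of 2 on the log2 scale the counts of E2 genes were lower by the alternative's own construction. They were 0 in HSC, 6 in CLP, 5 between the WT populations and 2 between the GRK6-/- populations. All genes then stood at 12.4%, 24.8%, 20.5% and 19.1%. Between the WT populations the share of members lay above that of all genes in the main setting. It lay under that share at the threshold of 2 and with the pseudocount of 0.1. With rows matched by locus, an alternative added after seeing the data, the Ube2h ratio turned to 1.30 in CLP and to 1.53 between the GRK6-/- populations, because its row there has another name. limma called 0 E2 genes in each of its alternatives. No paired analysis was possible because each group had 1 library, and for the same reason no replicate could be left out. The limit of these data is that lack of replicates. A 2-fold difference between pools of 13 to 15 cells may come from the cells picked, the mice, PCR or the genotype, which cannot be told apart, and the low members rest on few fragments.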

Other observations

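Ube2j2, an E2 at the endoplasmic reticulum, has no row of its own. Its locus (chr4:155317940-155333713, mm9) was named Gm5801 in WT HSC, GRK6-/- HSC and GRK6-/- CLP, at 16.3, 23.9 and 16.5 FPKM, and carried both names in WT CLP, at 25.7 FPKM, so it is not among the 31 genes.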
